A study of Mus musculus with 8 samples.

Results

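Intraflagellar transport (IFT) genes, the genes of the BBSome and a set of genes of the ciliary gate were examined in the testis of N6amt1-SKO and control mice. Members were taken from the gene table by symbol: all Ift and Bbs genes, the IFT and BBSome subunits that carry other names (Wdr19, Wdr35, Ttc8, Ttc21b, Ttc26, the Ttc30 genes, Traf3ip1, Cluap1 and Arl6), the dynein-2 genes, the tectonic genes, the B9 domain genes and Mks1. The rule found 43 of the 17121 genes in the table. All 43 passed the filter on low values (25 or more in 4 or more libraries) and were among the 17066 genes tested. By known role, 6 members encode IFT-A, 17 IFT-B, 10 the BBSome with its recruiting GTPase and assembly chaperones, 4 dynein-2 and 6 the transition zone.

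The series holds 8 RNA-seq libraries of mouse testis, 4 with the genotype label N6amt1-SKO (SKO below) and 4 with the label CTL, and asks how N6AMT1, a methyltransferase, acts in the making of sperm. The labels do not spell out SKO and give no strain, age, targeting allele or Cre driver for either group. Whether each library stems from its own animal is not stated, so the p-values describe the scatter of these 8 libraries, some of which may be technical.

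IFT carries proteins along the axoneme of a cilium or flagellum in trains built of many subunits. IFT-B trains are moved to the tip by kinesin-2, and IFT-A with dynein-2 is needed for the way back. The BBSome rides on these trains as a membrane cargo adaptor, and the transition zone at the base controls what enters. In the testis, spermatids use IFT while they build the sperm tail, and mouse mutants of several IFT genes are known to have short or malformed sperm flagella.

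The deposited values are gene counts that had been scaled per library and rounded, and member values below are these after TMM normalisation. Column totals lay between 94.2 and 102.9 M in SKO libraries and between 101.6 and 103.1 M in CTL libraries (M for 1e6). The gaps in the low values gave about 40.6 to 65.6 M reads in SKO 1 to 4, and 70.1 and 57.4 M in CTL 3 and 4. In CTL 1 and 2, 99.0% of the whole numbers from 1 to 100 occurred, so no factor could be read for them; their column totals were 101.6 and 102.8 M. Libraries also differed in 18S ribosomal RNA, which took 0.969% of the values in SKO 4 and 0.731% and 0.721% in CTL 3 and 4, against 0.173% to 0.273% in the other 5. These are called the higher 18S and the lower 18S libraries below. N6amt1 itself had 586, 557, 561 and 625 in SKO 1 to 4 and 475, 433, 629 and 514 in CTL 1 to 4 (log2 fold change 0.19, standard error 0.17, limma adjusted p = 0.437). The value sums the whole gene and the targeted part is not given, so it does not check the labels. The protocol for RNA extraction speaks of heart ventricles and the tissue label of testis. The summed value of 12 spermatocyte markers was 622116 to 734656 in SKO and 795135 to 1036921 in CTL libraries. Of 7 heart muscle markers 4 were in the table, and Actc1, Myl2 and Nppa were not. The summed value of these 4 was 4086 to 6509 in SKO and 2061 to 2722 in CTL libraries.

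Some of these genes were lower in the SKO libraries. Of the 43 members, 10 fell, 0 rose and 33 did not pass at a limma adjusted p of 0.05, where 7.93% of all genes tested fell and 11.9% rose. The 10 were Ift140, Ift122 and Wdr35 of IFT-A, Ift172, Ift46, Ift27 and Ift81 of IFT-B, Dync2h1 and Dync2i1 of dynein-2, and Bbs7 of the BBSome. Of the 43 log2 fold changes 40 were negative, but with scaling to library totals only 27 were, since that scaling moved the median of all genes by 0.29 and called 4 members lower, where 2.67% of all genes were. Relative to the median of all genes, 41 of 43 members were lower with either scaling. The median log2 fold change of the members was -0.40, against 0.04 for all genes tested. For 19 members every SKO library lay below every CTL library, where this held for 10.6% of all genes, and for 0 members did the groups separate the other way, where 15.6% of all genes did. In the heat map of members by library the lowest SKO values belong to a few large subunits and Ttc30a2, for which CTL 3 and 4 were also above CTL 1 and 2.

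**Figure D1:**
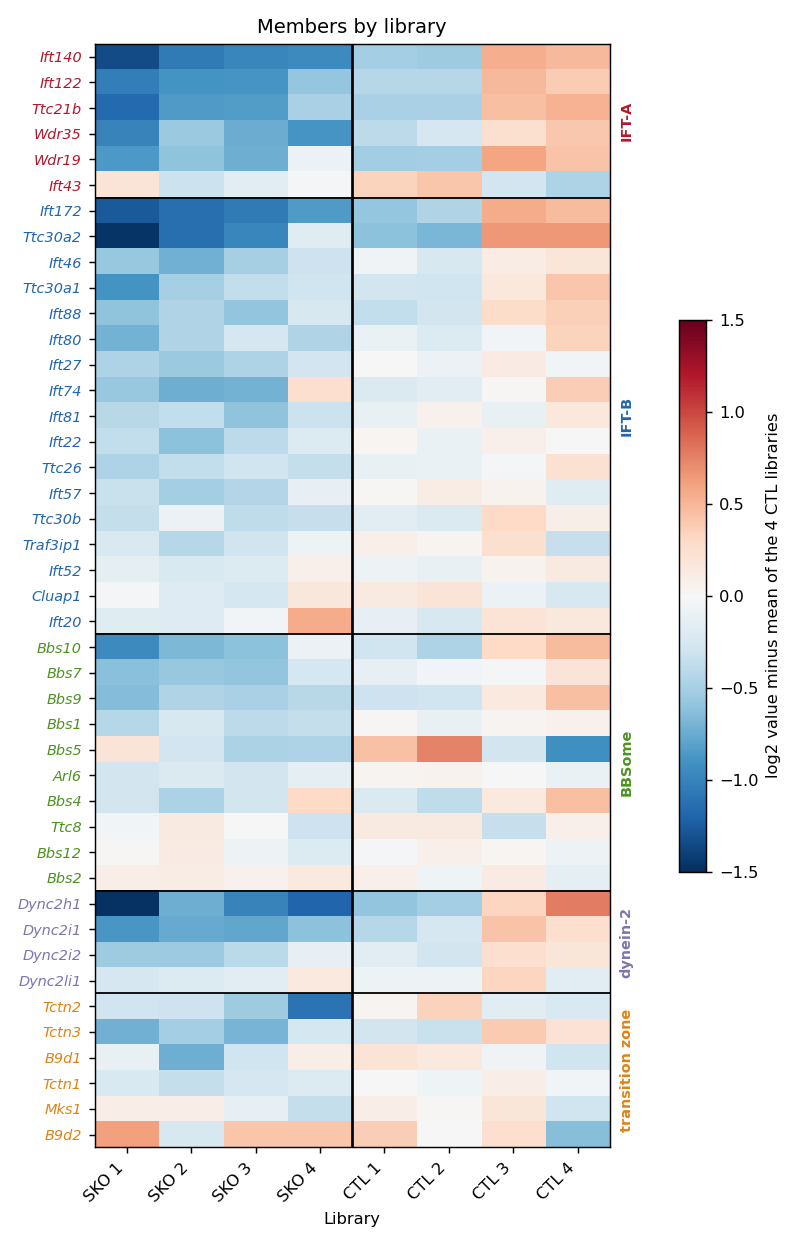
Each cell shows a member's log2 value in a library minus its mean over the 4 CTL libraries, with SKO 1 to 4 on the left, CTL 1 to 4 on the right, and members grouped by complex. Of 43 members, 40 had a negative fold change (27 when scaled to library totals). Ift140, Ift172, Ttc30a2 and Dync2h1 show the deepest blue, in SKO 1, and are above 0 in CTL 3 and 4. Ttc30a2 is pale in SKO 4 (-0.187) and Dync2h1 in CTL 3 (0.325).

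The number of calls depended on single libraries, while the median change stayed in a narrow range. Without SKO 1, without SKO 3 or without CTL 3, limma called 0 members, where 2.75%, 0% and 3.22% of all genes fell. At an unadjusted p below 0.05, 15, 18 and 19 members were lower in these fits (13.1%, 11.7% and 14.2% of all genes), against 25 members and 15.3% of all genes with the 8 libraries. Without SKO 2 limma called Wdr35 alone (2.96% of all genes). Across the 8 fits that left out a library the median of the members stayed between -0.49 and -0.37. All 10 called members kept a negative fold change, which follows from their groups not overlapping. With the 18S set as a term in the fit, 20 members fell, the 10 among them, where 12.9% of all genes did. Without both CTL 1 and CTL 2, 20 members fell, where 13.7% of all genes did, and 9 of the 10 were among them.

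Markers of some other cell types also shifted. Of 16 Sertoli cell markers 12 rose and 0 fell, and their summed value was 205170 to 418190 in SKO and 91297 to 208958 in CTL libraries. Spermatogonial markers rose for 4 of 8 genes (summed value 30887 to 35266 in SKO, 19596 to 24410 in CTL libraries). Of 12 spermatocyte markers Hspa2, Piwil1, Tbpl1 and Adam2 fell (4 genes). Among markers of Leydig cells, peritubular myoid cells, macrophages and endothelium, 1 of 8, 3 of 5, 1 of 9 and 1 of 6 rose and 0 fell. For comparison, 11.9% of all genes tested rose and 7.93% fell. The Leydig, macrophage and endothelial shares were near that of all genes. Of 12 round spermatid and 10 elongating spermatid markers 0 were called in either direction. Their summed values were 62456 to 132017 and 266450 to 743864 in SKO libraries and 67981 to 199898 and 211943 to 948567 in CTL libraries. Their median log2 fold changes were -0.29 and -0.15 in the fit of all libraries. Within the lower 18S libraries these medians were -0.88 and -1.22. With the higher 18S libraries, where SKO 4 is the sole SKO library, they were -0.09 and 0.40. Fewer cells of a type and less RNA per cell cannot be told apart in bulk tissue, and the part of these shifts in the lower values of the members was not tested. Ducts with motile cilia are another possible source: 5 of 8 multiciliated cell markers were in the table, Mcidas, Gmnc and Myb were not among them, and the 5 had a summed value of 74410 to 133503 in SKO and 91173 to 149799 in CTL libraries, with 0 called.

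IFT-A, the complex of return transport, had the lowest median of the complexes in the fit of 8 libraries. Of its 6 genes 3 fell, where 7.93% of all genes tested did, and the median log2 fold change was -0.82. Within the lower 18S libraries medians were -0.47 (IFT-A), -0.38 (IFT-B), -0.37 (dynein-2), -0.30 (transition zone) and -0.26 (BBSome). With the higher 18S libraries, where SKO 4 is the sole SKO library, they were -0.97, -0.32, -0.63, -0.25 and -0.16. Ift43 has 1.651 kb of exon and the other IFT-A genes 7.273 to 11.278 kb. Ift140 encodes a large core subunit (GRCm38, chromosome 17, 25016085 to 25099495) and had 50131, 60483, 64462 and 65274 in SKO 1 to 4, against 89256, 87325, 184967 and 177937 in CTL 1 to 4. The groups did not overlap, and the CTL libraries split into a lower and a higher pair. The means were 60088 ± 6960 in SKO and 134871 ± 53869 in CTL libraries (SD, n = 4 each), and the fit gave a 2.12-fold lower level in SKO (log2 fold change -1.08, standard error 0.27, limma adjusted p = 0.0258).

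Ift122, which encodes a further core subunit of IFT-A (chromosome 6, 115853470 to 115926699), followed the same order. It had 29426, 32474, 32672 and 40332 in SKO 1 to 4, against 44653, 44856, 84164 and 78165 in CTL 1 to 4 (log2 fold change -0.85, standard error 0.24, limma adjusted p = 0.0356). Wdr35 encodes the subunit also named IFT121 (chromosome 12, 8973892 to 9028847) and had 20285, 27770, 24357 and 22077 in SKO 1 to 4, against 31172, 34299, 48051 and 53799 in CTL 1 to 4 (log2 fold change -0.80, standard error 0.20, limma adjusted p = 0.0253). For both genes every SKO library was below every CTL library. Ttc21b, the gene of IFT139, was at nearly the same size of change (log2 fold change -0.83) and just missed the threshold (limma adjusted p = 0.0549). Its SKO 4 value of 27993 was level with CTL 1 and 2 at 27936 and 27962. Wdr19, the gene of IFT144, had a log2 fold change of -0.57 (standard error 0.29, limma adjusted p = 0.181). Ift43, the smallest IFT-A subunit, stood apart with a log2 fold change of -0.08, a 95% interval from -0.57 to 0.41, and values of 5430 to 7812 in SKO and 4950 to 9088 in CTL libraries.

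**Figure D2:**
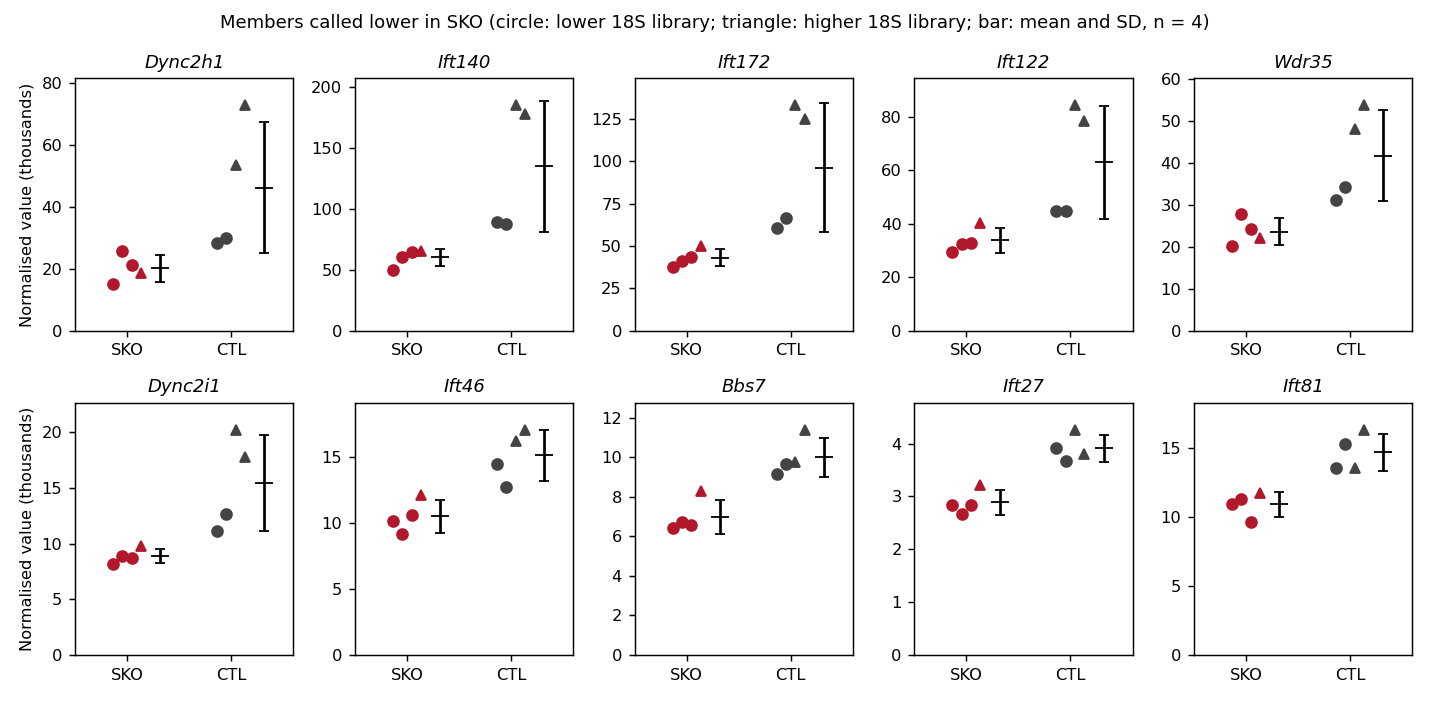
Normalised values (in units of 1000) of the 10 members called lower in SKO, with each library as a point (circles for lower 18S, triangles for higher 18S libraries) and the mean and SD of 4 libraries beside each group. All 4 SKO points lie below all 4 CTL points in each panel, and in Ift140, Ift172 and Ift122 the 2 CTL triangles lie far above the 2 CTL circles.

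In IFT-B, the complex of outward transport, 4 of 17 genes fell and 13 did not pass, where 7.93% of all genes tested fell. The median log2 fold change was -0.43. Ift172, which encodes a large peripheral subunit known in Chlamydomonas to act in the turnaround at the tip (chromosome 5, 31253277 to 31291116), had 37788, 41246, 43348 and 50186 in SKO 1 to 4, against 60403, 66290, 132946 and 125105 in CTL 1 to 4. Its groups did not overlap. The means were 43142 ± 5226 in SKO and 96186 ± 38131 in CTL libraries (SD, n = 4 each; log2 fold change -1.07, standard error 0.27, limma adjusted p = 0.0255). The other 5 genes of the peripheral module did not pass: the log2 fold changes of Ift80, Ift57, Traf3ip1, Cluap1 and Ift20 were -0.47, -0.35, -0.26, -0.08 and 0.03. Ift20, whose product also works at the Golgi, had the highest value of the 8 libraries in SKO 4 (7724, against 4587 to 5119 in SKO 1 to 3 and 4438 to 6049 in CTL libraries). Of the exon bases of Cluap1, 40.8% overlap other annotated genes, so its value is uncertain.

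Among the 11 core IFT-B genes 3 fell, where 7.93% of all genes tested did, by smaller and more even amounts. Ift46 had 10125, 9130, 10618 and 12091 in SKO 1 to 4, against 14472, 12713, 16216 and 17047 in CTL 1 to 4 (log2 fold change -0.52, standard error 0.14, limma adjusted p = 0.0339). Ift27 encodes a small GTPase that couples IFT to BBSome exit and had 2839, 2660, 2835 and 3209 in SKO 1 to 4, against 3918, 3663, 4261 and 3807 in CTL 1 to 4 (log2 fold change -0.44, standard error 0.12, limma adjusted p = 0.035). Ift81, a tubulin-binding subunit that pairs with IFT74, had 10956, 11329, 9672 and 11756 in SKO 1 to 4, against 13571, 15297, 13578 and 16337 in CTL 1 to 4 (log2 fold change -0.43, standard error 0.13, limma adjusted p = 0.0426). In these 3 genes the groups did not overlap. CTL 3 and 4 were both above CTL 1 and 2 for Ift46, and not for Ift27 and Ift81.

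The remaining core genes pointed the same way without passing. Log2 fold changes were -0.47 for Ift88, the subunit whose loss gave the classic short-cilia mouse, -0.44 for Ift74, -0.39 for the small GTPase gene Ift22, -0.37 for Ttc26 and -0.13 for Ift52, with limma adjusted p-values of 0.107, 0.207, 0.0564, 0.0647 and 0.513. Ift74 turned on a single library: it had 15069 to 16830 in SKO 1 to 3 and 29756 in SKO 4, against 21413 to 32178 in CTL libraries. The 3 Ttc30 genes, neighbours on chromosome 2 that encode versions of the IFT70 subunit, had log2 fold changes of -0.94 (Ttc30a2), -0.52 (Ttc30a1) and -0.29 (Ttc30b), with limma adjusted p-values of 0.104, 0.0967 and 0.216. Of the 50-base words of the Ttc30a2 transcript 43.7% occur in that of Ttc30a1, so reads could be split between them and the single values are uncertain.

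Dynein-2, the motor of return transport, showed its change in the heavy chain and an intermediate chain. Dync2h1, the heavy chain gene (chromosome 9, 6928503 to 7184446), had 15204, 25573, 21270 and 18719 in SKO 1 to 4, against 28315, 30054, 53431 and 72728 in CTL 1 to 4 (log2 fold change -1.10, standard error 0.31, limma adjusted p = 0.035). Dync2i1, an intermediate chain gene also known as Wdr60 (chromosome 12, 116206262 to 116263022), had 8163, 8882, 8716 and 9761 in SKO 1 to 4, against 11144, 12632, 20235 and 17823 in CTL 1 to 4 (log2 fold change -0.76, standard error 0.20, limma adjusted p = 0.0276). Neither gene's groups overlapped. Dync2i2, also known as Wdr34, and the light intermediate chain gene Dync2li1 had log2 fold changes of -0.40 and -0.12 and did not pass (limma adjusted p = 0.107 and 0.619).

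**Figure D3:**
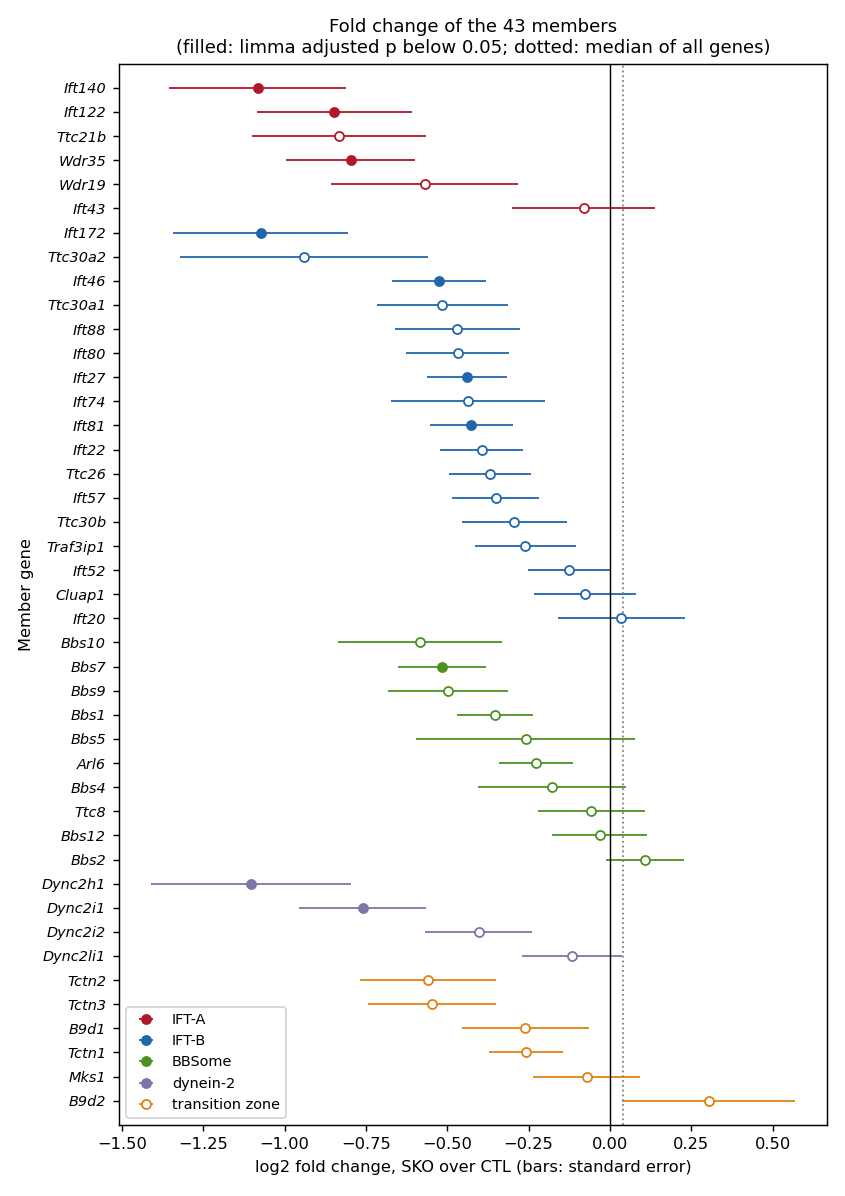
Log2 fold change of SKO over CTL for the 43 members, with bars of 1 standard error, coloured by complex, filled where the limma adjusted p was below 0.05. The 10 filled points lie between -1.10 and -0.43, 40 of 43 points lie left of 0 (27 when scaled to library totals), and the dotted line marks the median of all genes tested, 0.04.

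Of the 10 BBSome genes 1 fell, a share near the 7.93% of all genes tested, and the median log2 fold change was -0.24. Bbs7, which encodes a core subunit (chromosome 3, 36573142 to 36613477), had 6421, 6700, 6597 and 8279 in SKO 1 to 4, against 9139, 9655, 9778 and 11390 in CTL 1 to 4 (log2 fold change -0.52, standard error 0.14, limma adjusted p = 0.0292). Its groups did not overlap, with SKO 4 closest to the CTL libraries. Bbs9, which also encodes a core subunit, had the highest mean of the set over the 8 libraries, with 6731, 7713, 7541 and 7905 in SKO 1 to 4, against 8488, 8608, 11713 and 14454 in CTL 1 to 4, and did not pass (log2 fold change -0.50, limma adjusted p = 0.0809), although the groups did not overlap. The other subunit genes Bbs1, Bbs5, Bbs4, Ttc8 and Bbs2 had log2 fold changes of -0.35, -0.26, -0.18, -0.06 and 0.11. Arl6, the GTPase that brings the BBSome to membranes, was at -0.23, and the chaperonin-like assembly genes Bbs10 and Bbs12 at -0.58 and -0.03. None of these 8 passed (limma adjusted p between 0.0586 for Bbs1 and 0.901 for Bbs12). By limma Bbs1 and Bbs10 were lower at an unadjusted p below 0.05, as were 15.3% of all genes tested. The 95% interval of the log2 fold change ran from -0.16 to 0.37 for Bbs2 and from -0.36 to 0.29 for Bbs12. Bbs5 had 4433, 3159, 2777 and 2803 in SKO 1 to 4, against 5260, 6482, 3203 and 2047 in CTL 1 to 4, so that both the highest and the lowest library were CTL.

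At the transition zone 0 of 6 genes passed, where 7.93% of all genes tested fell, with a median log2 fold change of -0.26. By limma, Tctn1, Tctn2 and Tctn3 were lower at an unadjusted p below 0.05, as were 15.3% of all genes tested. Tctn2, a tectonic gene of the membrane-gating module, had 12445, 12333, 10618 and 7129 in SKO 1 to 4, against 15805, 19444, 13720 and 13025 in CTL 1 to 4 (log2 fold change -0.56, limma adjusted p = 0.0824). All 4 SKO libraries were below the CTL libraries. Tctn2 passed in 4 of 23 alternatives, with limma adjusted p-values from 0.00278 with length correction and the 18S set as a term to 0.425 with library totals, and Tctn3 also passed in 4. The related genes Tctn3 and Tctn1 had log2 fold changes of -0.55 and -0.26, and B9d1, Mks1 and B9d2, whose products form a B9 domain module, -0.26, -0.07 and 0.30. Of the exon bases of Tctn1, 25.5% overlap other genes, mainly Hvcn1 on the opposite strand.

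Levels per kilobase of exon differed widely within each complex. Values per kilobase averaged 7211, 6520, 6312 and 7246 in SKO libraries and 16185, 14536, 12631 and 9524 in CTL libraries for Ift140, Ift172, Ttc30a2 and Ift74. These 4 stood above all other members in both groups. Ift122 and Wdr35, with 3268 and 3248 in SKO libraries, were below Ift43 at 3939, B9d1 at 3662, Ift20 at 3618 and Dync2i2 at 3389 there, whereas in CTL libraries, with 6101 and 5751, they came next after the 4. Wdr19 of IFT-A had 831 in SKO and 1284 in CTL libraries. The BBSome genes lay between 281 (Bbs12) and 1388 (Arl6) in SKO and between 286 (Bbs12) and 1854 (Bbs7) in CTL libraries. Exon length is the union of annotated exons and can exceed that of the testis transcript, so this order is approximate.

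The size of the fall went with gene length, and this differed between the library sets. Across the 43 members the Spearman correlation of log2 fold change with exon length was -0.64 in the fit of 8 libraries, -0.25 in the 5 lower 18S libraries and -0.76 in the 3 higher 18S libraries, of which SKO 4 is the sole SKO library. Over all genes with a length it was -0.07, 0.19 and -0.32, in the same order. These are descriptions across genes that share libraries. Of 15 members with at least 6 kb of exon 7 fell, and of 28 shorter ones 3 fell, with median log2 fold changes of -0.57 and -0.28. Of all genes tested, at any length, 7.93% fell, and the share of the shorter members is near this. Within the lower 18S libraries the 2 medians were -0.45 and -0.32. Replicates also differed along length. Across members, the deviation of a library from its group mean had a Spearman correlation with length of -0.50 and -0.45 in CTL 1 and 2, and of 0.24 and 0.54 in CTL 3 and 4. In SKO 1 to 4 it was -0.39, 0.49, 0.38 and -0.22, an order that does not follow the 18S sets. The same correlation over all genes with a length was -0.44, -0.40, 0.26 and 0.43 in CTL 1 to 4. In SKO 1 to 4 the value over all genes was -0.39, 0.29, 0.20 and -0.01, so the pattern is not particular to the members.

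**Figure D4:**
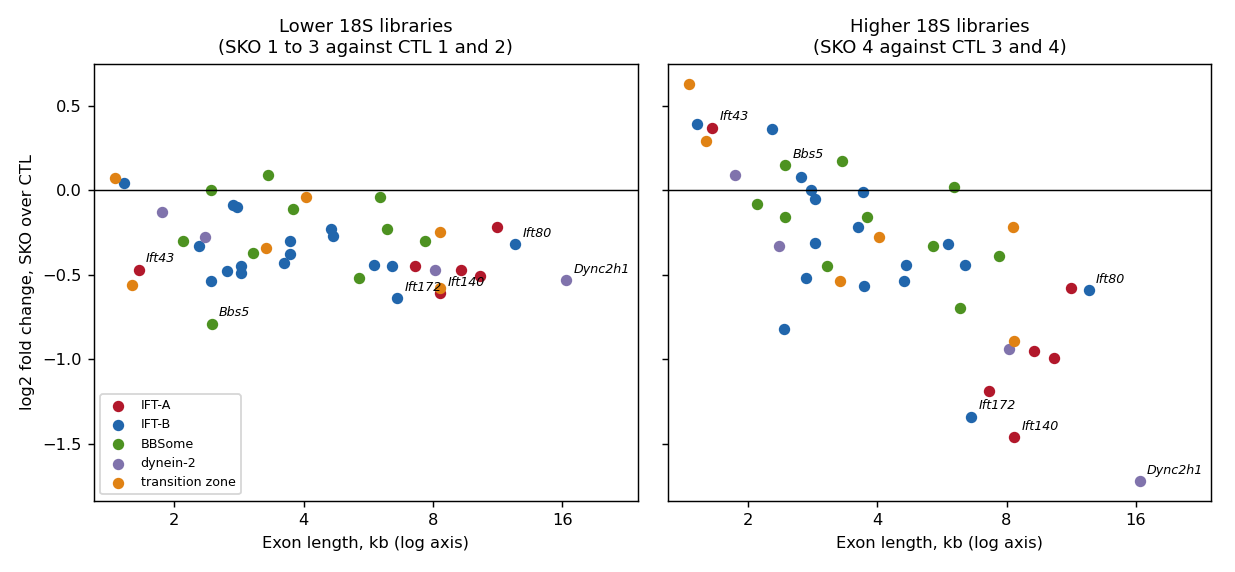
Log2 fold change of SKO over CTL against exon length in kb (log axis) for the 43 members, for the 5 lower 18S libraries on the left and the 3 higher 18S libraries on the right, coloured by complex. On the left 42 of 43 members lie between -0.64 and 0.09 at any length and Bbs5 lies at -0.79, and on the right the fold change deepens with length, down to -1.72 for Dync2h1.

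Both library sets gave lower values for each of the 10 called members, by different amounts. In all 10 every SKO library lay below every CTL library, so the shared direction follows from that and is no further support. Within the lower 18S libraries (SKO 1 to 3 against CTL 1 and 2) the log2 fold changes of Ift140, Ift172 and Ift122 were -0.61, -0.64 and -0.51 (limma adjusted p = 0.0197, 0.0165 and 0.018). With the higher 18S libraries (SKO 4 against CTL 3 and 4) they were -1.46, -1.34 and -0.99. Dync2h1 and Wdr35 did not pass within the lower 18S libraries (log2 fold changes -0.53 and -0.45, limma adjusted p = 0.0828 and 0.053); with the higher 18S libraries they had -1.72 and -1.19. For Bbs7, Ift27, Ift46 and Ift81 the sets were closer, with -0.52, -0.45, -0.45 and -0.44 in SKO 1 to 3 against CTL 1 and 2, and -0.33, -0.31, -0.44 and -0.32 in SKO 4 against CTL 3 and 4. Dync2i1 had -0.47 with the lower and -0.94 with the higher 18S libraries, where SKO 4 stands alone and is assumed to vary like the CTL pair. With the lower 18S libraries 16 of the 43 members fell and 0 rose, where 13.4% of all genes fell and 18.8% rose. With the higher 18S libraries 4 fell and 0 rose, where 1.53% fell and 0.262% rose. Whether the sets differ in these fold changes was not tested.

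Removing each library's smooth trend against exon length, an alternative chosen after seeing the data, kept all 10 calls and raised the count to 18 of 43 members, where 11.8% of all genes fell. Ift140 and Ift172 then had log2 fold changes of -1.08 and -1.09 (limma adjusted p = 0.0112 and 0.0126) and Ift27 -0.56 (limma adjusted p = 0.0146). The same correction together with the 18S set as a term gave 27 members, where 18.4% of all genes fell.

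A motif search was made in the members' promoters. Regulatory factor X (RFX) proteins, among them RFX2 in spermatids, are known to bind a paired motif called the X-box in promoters of ciliary genes. RefSeq promoter windows (GRCm38.p6, 250 bases before to 50 after each start) were found for 38 of the 43 members. They were searched on both strands for the paired motif, GTNNCC followed by GGNNAC with 1, 2 or 3 bases between them, and for the single site GGCAAC. A paired motif was in the windows of 12 of 38 members (31.6%), against 4.0% of all 27025 genes with a window. The single site, which overlaps many of the paired matches, was in the windows of 19 members and of 14.14% of all genes. By complex the paired motif was in 4 of 6 transition zone genes (Mks1, Tctn1, Tctn2 and Tctn3), 3 of 10 BBSome genes (Bbs1, Bbs4 and Bbs7), 4 of 14 IFT-B genes (Ift22, Ift57, Ttc26 and Ttc30a2), 1 of 5 IFT-A genes (Wdr19) and 0 of 3 dynein-2 genes. Matches upstream of the annotated gene are shown for 6 genes with a single match each, taken from the 4 complexes that have them, 5′ to 3′ on the gene's strand, with the matched bases in capitals.
Bbs7 (chr3:36613478-36613540, minus strand): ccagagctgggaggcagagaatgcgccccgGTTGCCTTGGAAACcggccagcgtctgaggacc
Wdr19 (chr5:65199632-65199695, plus strand): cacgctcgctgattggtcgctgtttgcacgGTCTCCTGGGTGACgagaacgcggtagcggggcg
Ttc30a2 (chr2:75978180-75978233, minus strand): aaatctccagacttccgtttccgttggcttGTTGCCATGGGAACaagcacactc
Tctn2 (chr5:124598657-124598730, plus strand): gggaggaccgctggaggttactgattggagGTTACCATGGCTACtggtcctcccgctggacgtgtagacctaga
Tctn3 (chr19:40612329-40612401, minus strand): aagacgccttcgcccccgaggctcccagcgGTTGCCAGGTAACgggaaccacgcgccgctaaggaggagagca
Mks1 (chr11:87853161-87853214, plus strand): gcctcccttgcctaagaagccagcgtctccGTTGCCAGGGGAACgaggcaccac

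Counted from the RefSeq start of the window, the centres of these matches lay at -114 (Bbs7), -27 (Wdr19), -17 (Ttc30a2), -55 (Tctn2), -133.5 (Tctn3) and -17 (Mks1). For Bbs7 this start differs from the end of the GENCODE gene given above, to which the match lies closer. Of the 12 members with a paired motif 1 fell (Bbs7), a share near the 7.93% of all genes tested. Of the 26 searched members without it 7 fell. The median log2 fold changes of these 2 sets were close, at -0.38 and -0.42. The other 5 members had no window. A match is a description of the letters in these windows.

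Other genes of ciliary transport were taken from lists kept apart from the members. Of 14 genes of kinesin-2 and the dynein light chains shared with dynein-2, 1 fell and 2 rose, with a median log2 fold change of -0.19; these shares are near those of all genes tested (7.93% fell and 11.9% rose). Kif3b, a motor subunit of kinesin-2, had 21666, 27808, 25298 and 20626 in SKO 1 to 4, against 34674, 38048, 46174 and 54449 in CTL 1 to 4 (log2 fold change -0.85, standard error 0.18, limma adjusted p = 0.016). Its partners Kifap3 and Kif3a had log2 fold changes of -0.58 and -0.28 and did not pass (limma adjusted p = 0.0506 and 0.411). The light chain genes Dynlrb1 and Dynlt3, which also serve cytoplasmic dynein, rose, with log2 fold changes of 0.90 and 0.74 (limma adjusted p = 0.0123 for both).

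Of 14 other IFT and BBSome partners 1 fell and 2 rose, again near the shares of all genes, with a median of -0.25. Inpp5e, which encodes a phosphoinositide phosphatase of the ciliary membrane, fell by 0.66 on the log2 scale (limma adjusted p = 0.0322), and Ccdc28b and Tulp3, an adaptor that IFT-A carries, rose by 0.96 and 0.69 (limma adjusted p = 0.0123 and 0.0393). Hspb11 and Bbip1, further subunits of IFT-B and of the BBSome, had log2 fold changes of 0.11 and -0.20 and did not pass. Of 22 other transition zone genes 4 fell and 1 rose, where 7.93% of all genes tested fell and 11.9% rose, with a median of -0.31. Among them Ahi1, Nphp4 and Rpgrip1 fell by 0.93, 0.80 and 0.72 on the log2 scale (limma adjusted p = 0.0156, 0.0179 and 0.0123), and Cc2d2a rose by 0.71 (limma adjusted p = 0.035). Rpgrip1 had 15161, 14970, 15892 and 17543 in SKO 1 to 4, against 25198, 25355, 25475 and 28496 in CTL 1 to 4, an even split with no break between CTL 1 and 2 and CTL 3 and 4. Mak, the gene of a kinase known to act on IFT and cilium length, fell by 0.49 on the log2 scale (limma adjusted p = 0.0348).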

How the data were processed

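Per the labels' protocols, total RNA was taken with TRIzol and libraries were made with a NEBNext Ultra RNA kit. It does not mark strand, so reads from opposite strands of overlapping genes are summed. Per the submitters' processing notes, HISAT2 2.0.5, fastp, CASAVA and featureCounts 1.5.0-p3 were used with mm10. The authors deposited a single table whose values are a score: counts that were scaled library by library and then rounded, as gaps in the values show. The scaling method is not stated. In the 6 libraries with a clear factor 99.8% to 100.0% of values up to 1000 were exact rounded multiples. Because these are not raw counts, limma 3.58.1 (R 4.3.3) was used.

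The filter kept genes with 25 or more in 4 or more libraries. TMM factors (30% and 5% trimmed) scaled the values, and limma, with a variance trend over the mean, was run on log2(value + 5). Tests are two-sided, adjusted by Benjamini-Hochberg over all 17066 genes, with a threshold of 0.05. Fold changes are SKO over CTL on the log2(value + 5) scale. The pipeline was tested on simulated data. Lengths, overlaps and gene coordinates come from GENCODE M21 (GRCm38, the assembly of mm10). Members, lists and tests were chosen with earlier results of these data known. Every member is named, and values per library are given for called members and for the member with the highest value in each complex; Ttc21b, Ift74, Ift20, Ift43 and Bbs5 were added after their values were seen. Lowest chi-square per gene between libraries was 54.1 (CTL 1 and CTL 2), so no column was a copy of another. Next came SKO 2 and SKO 3 with 62.5, and the other pairs within a group had 188 or more. The measure cannot tell whether such a pair stems from the same animal. Counting error is small at these values. Some genes of the lists beside the members are not reported here.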

Additional observations from a re-analysis of the deposited data

Results flagged for a closer look

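In 6 of 88 groups of 4 libraries (the members and N6amt1, each in SKO and in CTL), a library lay far from the other 3, where chance gives about 1 in 20. SKO 4 was high for Bbs7 (8279, against 6421 to 6700 in the other SKO libraries), for Ift20 (7724, against 4587 to 5119) and for Ift74 (29756, against 15069 to 16830). SKO 2 was high for Ttc30b (1200, against 979 to 1007). CTL 3 was high for Dync2li1 (5672, against 4053 to 4317 in the other CTL libraries) and low for Ttc8 (1297, against 1740 to 1821).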

How the results depend on the processing

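Over 23 alternatives, the 10 called members stayed negative throughout, from -1.72 to -0.14. Their groups did not overlap, so leaving out libraries could hardly turn their signs. Counts of genes changed and of members fallen (3392 and 10 as reported) were 5341 and 4 with library totals (1 member risen, Bbs2, and a median of -0.11), 5477 and 16 in the lower 18S libraries alone, and, added after seeing the data, 5819 and 27 with length correction and the 18S set together and 295 and 4 in the higher 18S libraries. Members fallen were 20 with the 18S set as a term, 20 without CTL 1 and CTL 2, and 18 with length correction. Leaving out single libraries gave 0 to 3981 genes changed (0 without SKO 3, with 18 members lower at an unadjusted p below 0.05 by limma) and 0 to 13 members fallen. Correlations of deviations between same-numbered libraries were 0.673, 0.012, 0.082 and 0.231, and not every SKO library correlated best with its own number. Such values cannot tell whether replicate numbers pair the samples. The replicate block gave 14 members fallen (9 of the 10 among them, where 9.97% of all genes fell) and 3863 genes changed. The cause of these shifts was not tested.
Signs turned only for members that had not passed, and those that passed were picked from these same libraries. With library totals log2 fold changes were 0.06 (Arl6), 0.03 (B9d1), 0.26 (Bbs12), 0.11 (Bbs4), 0.03 (Bbs5), 0.21 (Cluap1), 0.17 (Dync2li1), 0.21 (Ift43), 0.17 (Ift52), 0.22 (Mks1), 0.03 (Tctn1), 0.03 (Traf3ip1) and 0.23 (Ttc8). Upper quartile factors gave Bbs12 0.01 and median-ratio factors Ift20 -0.03. Without CTL 1 and CTL 2, Bbs5 had 0.29, Cluap1 0.04, Ift20 -0.20, Ift43 0.24 and Ttc8 0.03. Length correction gave Bbs2 -0.0031 and Ift20 -0.07. Higher 18S libraries gave B9d1 0.29, Bbs4 0.02, Bbs5 0.15, Cluap1 0.36, Dync2li1 0.09, Ift43 0.37 and Ift74 0.08. Leaving out single libraries gave ranges of -0.27 to 0.01 for Ift43, -0.09 to 0.03 for Bbs12, -0.14 to 0.11 for Ift20, -0.20 to 0.02 for Mks1 and -0.23 to 0.03 for Ttc8.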
